A study of Mus musculus with 16 samples.

Results

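The cells of the T3 plates, taken 3 days after TGF-β2 was added, were split by whether they held *Tgfb2* transcripts. *Tgfb2* encodes the ligand TGF-β2, and the cells also received recombinant human TGF-β2 in the medium, so the mRNA measured here is what the mouse cells made themselves. A well was used when it held at least 200 detected genes and at least 3000 UMIs (unique molecular identifiers, which count each captured mRNA molecule once). A cell with at least 1 UMI of *Tgfb2* was called *Tgfb2*-positive, and a cell with 0 was called *Tgfb2*-negative. Of the 1152 T3 wells, 1038 passed, of which 488 were positive and 550 negative, and over all time points 4301 of 4608 wells passed. The classes were thus chosen by the measured UMI counts of *Tgfb2*, so the levels of *Tgfb2* are given as a description, and *Tgfb2* was left out of every test.

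TGF-β ligands bind a complex of type I and type II receptors, which phosphorylate Smad2 and Smad3 and thereby change the transcription of target genes. The pathway is required for tendon development, where it maintains *Scx*, the basic helix-loop-helix transcription factor of tendon and ligament progenitors. Progenitors that also express *Sox9*, the transcription factor of cartilage, contribute to the junction of tendon with cartilage.

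All cells came from 1 clone of iPSCs made by Sendai virus vectors from fibroblasts of embryos carrying the *ScxGFP* transgene, in which GFP is driven by *Scx* regulatory sequence. They were taken through mesodermal induction with a Wnt agonist (CHIR) and the hedgehog inhibitor cyclopamine, and then received 10 ng/ml TGF-β2. T0 cells were taken before TGF-β2, and T3, T6, and T9 cells after 3, 6, and 9 days of it. Live single cells were sorted into 3 plates of 384 wells per time point and sequenced by CEL-Seq2, which reads the 3′ end of each mRNA. Both classes of a plate were thus in the same library, and the 3 plates are the replicates. Nothing states that the plates of a time point came from separate cultures, so the p-values measure the spread between these plates, which may be technical.

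The positive and negative cells of a T3 plate were of like depth. The median UMI count was 5100 in positive and 4891.5 in negative cells of plate 1, 6580.5 and 6970 in plate 2, and 7178 and 7540 in plate 3. Plate 1 stood apart in the number of genes detected. After thinning every cell to 3000 UMIs its classes had medians of 1024.5 genes in positive and 1021.5 in negative cells, whereas those of plate 2 had 1587.5 and 1580 and those of plate 3 had 1359.5 and 1352. The UMIs summed over the cells of a plate and class ranged from 459999 to 1622582. Nearest to the minimum of UMIs, the deepest cell left out held 2999 and the shallowest kept held 3021.

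*Tgfb2* (ENSMUSG00000039239; GRCm38 chromosome 1, 186622792 to 186705989, minus strand) was detected in 24.8% of the cells of plate 1 (exact 95% interval 20.2 to 29.9), 61.2% of plate 2 (55.9 to 66.2), and 52.7% of plate 3 (47.3 to 58.0). These intervals treat the cells of a plate as independent and cover counting error only, so they do not test the plates against each other. Plate 1 was also the shallowest, with a median of 4932 UMIs per cell against 6758 in plate 2 and 7276 in plate 3. When each cell was thinned to 3000 UMIs, the shares were 19.9%, 43.0%, and 33.7% in plates 1, 2, and 3. Of the 488 positive cells, 185 held 1 *Tgfb2* UMI, 106 held 2, and 197 held 3 or more, with a highest count of 15. A cell with 0 UMIs can still have held *Tgfb2* mRNA that was not captured. As a measure of UMIs in cells of another kind, 2 of the 15 T3 cells that held UMIs of at least 3 pluripotency genes were *Tgfb2*-positive (13.3%, exact 95% interval 1.66 to 40.5) at a median of 13265 UMIs, against a median of 6484.5 UMIs in all positive cells.

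**Figure D1:**
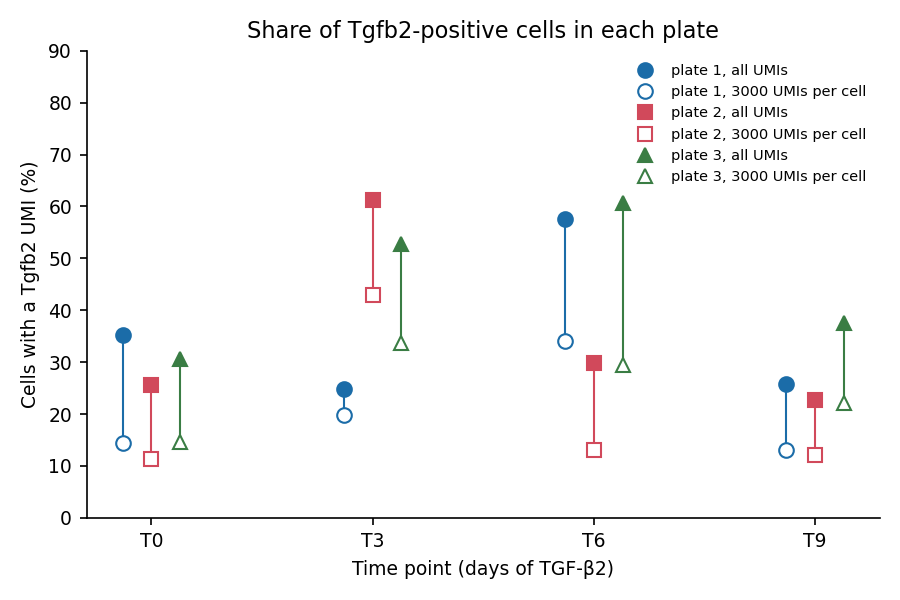
The share of cells with at least 1 *Tgfb2* UMI (vertical axis, percent) in each plate of each time point, with all UMIs (filled) and after thinning to 3000 UMIs per cell (open). The T3 plates spread from 24.8% to 61.2%, and the T3 shares after thinning, from 19.9% to 43.0%, lay above all T0 shares after thinning, of which the highest was 14.6%.

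The first question was which other genes differed between *Tgfb2*-positive and *Tgfb2*-negative cells at T3. At T3, *Tgfb2*-positive cells held more *Scx*, *Sox9*, *Plagl1*, and *Ostn* mRNA and less *Stmn2* mRNA, and genes of pluripotent cells were lower in them. *Plagl1* and *Stmn2* were called whichever plate was left out, whereas *Scx*, *Sox9*, and *Ostn* were not called without plate 3. With UMIs summed per plate and class and the plate as a block, edgeR called 45 of 9856 genes tested (0.457%), of which 23 were higher (0.233%) and 22 lower (0.223%) in positive cells. The levels of 34 of these 45 genes did not overlap between the classes over the 3 plates, against 6.63% of all genes tested. The 3 within-plate pairs cannot give a two-sided exact p under 0.25 for a single gene, so the calls rest on the spread that edgeR estimates across genes. Without the plate as a block no gene was called by edgeR (237 at an unadjusted p under 0.05), and DESeq2 with the block called 10. The count was 60 without plate 1, 12 without plate 2, and 13 without plate 3, and 5 genes (*Plagl1*, *Mgp*, *Malat1*, *Stmn2*, and *Dppa5a*) passed in each of these fits. With classes matched on UMIs per cell, edgeR called 3 of 9155 genes, and 41 of the 45 were tested there.

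Residual cells of other kinds made up a larger share of the negative than of the positive cells in plates 2 and 3, but not in plate 1. This difference was not tested. In plates 1, 2, and 3, 3, 7, and 5 *Tgfb2*-negative cells (1.24%, 4.96%, and 2.99%) and 1, 1, and 0 positive cells (1.25%, 0.450%, and 0%) held UMIs of at least 3 genes of a pluripotent, epithelial, endothelial, or neural marker list. Without these cells, 17 of 9656 genes were called (0.176%). All 23 genes called higher kept their direction without these cells, with log2 fold changes between 0.82 and 1.12 times the original, and 9 of them were still called (*Kbtbd11*, *Ostn*, *Plagl1*, *Fosb*, *Parm1*, *Igsf3*, *Nrp2*, *Mgp*, and *Malat1*). Of the 22 genes called lower, 13 could still be tested and 5 were still called (*Ptn*, *Stmn2*, *Ldb2*, *Ecm1*, and *Gsdma*).

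**Figure D2:**
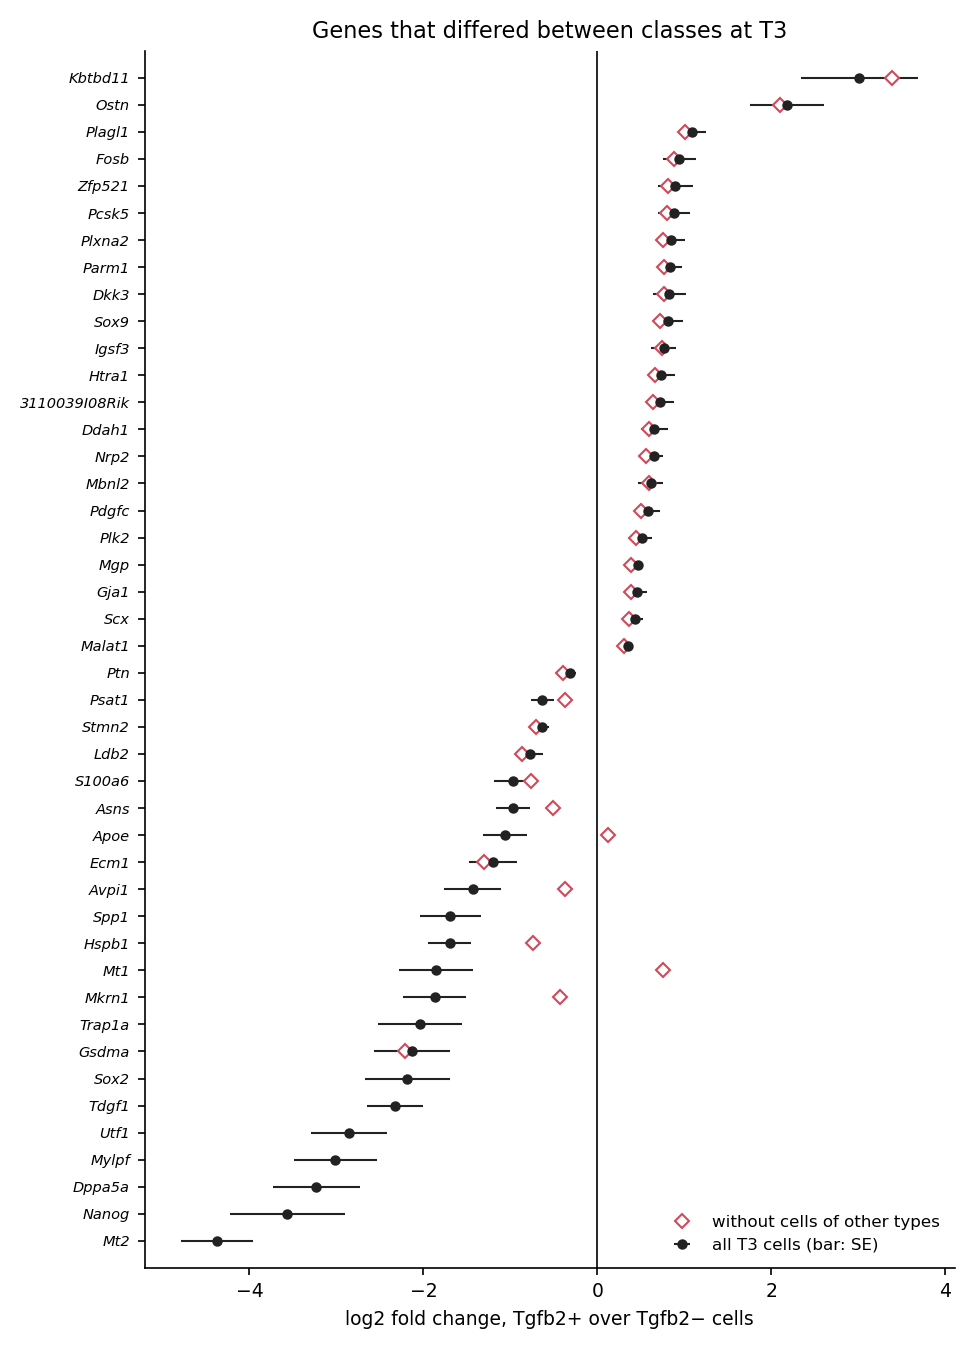
The log2 fold change of *Tgfb2*-positive over *Tgfb2*-negative cells at T3 (horizontal axis) for the genes called that are reported here, with all cells (filled, bar SE) and without the cells of other kinds (open). The open points of the genes called higher lie close to the filled ones, whereas *Apoe* and *Mt1* cross 0 and 9 of the genes called lower have no open point because too few UMIs were left to test them.

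*Ostn*, *Nptx1*, and *Fgf18* were the other marker genes given for these cells. *Ostn* (chromosome 16, 27307489 to 27351212) encodes osteocrin, a secreted peptide that binds the clearance receptor for natriuretic peptides. In plates 1, 2, and 3 it stood at 17.4, 20.3, and 73.2 CPM (UMIs of the gene per 1000000 UMIs of the same cells) in positive and 10.7, 4.78, and 7.38 CPM in negative cells. All positive values lay above all negative ones, with a log2 fold change of 2.18 ± 0.43 (SE; edgeR, adjusted p = 0.0128), and the value of plate 3 was far above the others. *Ostn* was found in few cells, 35 of the positive and 11 of the negative, and 5 positive cells held 44.2% of its UMIs in the positive class. Without plate 3 its log2 fold change was 1.34 (adjusted p = 1), and without plate 2 it was 2.2 (adjusted p = 0.0872).

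*Nptx1* (chromosome 11, 119538719 to 119547753) encodes a secreted neuronal pentraxin that clusters AMPA-type glutamate receptors at synapses. It stood at 15.2, 77.0, and 87.0 CPM in positive and 25.2, 20.1, and 28.8 CPM in negative cells of plates 1, 2, and 3. The direction in plate 1 was opposite to that in plates 2 and 3, and the log2 fold change of 1.22 ± 0.32 (SE) did not pass (adjusted p = 0.102). Without plate 1 it was 1.73 (adjusted p = 0.00163), and with cells thinned to 3000 UMIs it was 1.54 (adjusted p = 0.0379). *Fgf18* (chromosome 11, 33117430 to 33147400), a growth factor of skeletal development, stood at 34.8, 85.7, and 55.9 CPM in positive and 26.0, 40.2, and 43.5 CPM in negative cells. Its positive value exceeded the negative one in each plate, but the classes overlapped across plates, and the log2 fold change of 0.63 ± 0.25 (SE) did not pass (adjusted p = 0.519). It passed with cells thinned to 3000 UMIs, at 1.27 (adjusted p = 0.0178). In thinned cells the classes are set from the thinned counts. The thinned fit called 38 of 7221 genes tested (0.526%). Of the 45 genes called with all UMIs, 37 were tested there and 16 stayed called.

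**Figure D3:**
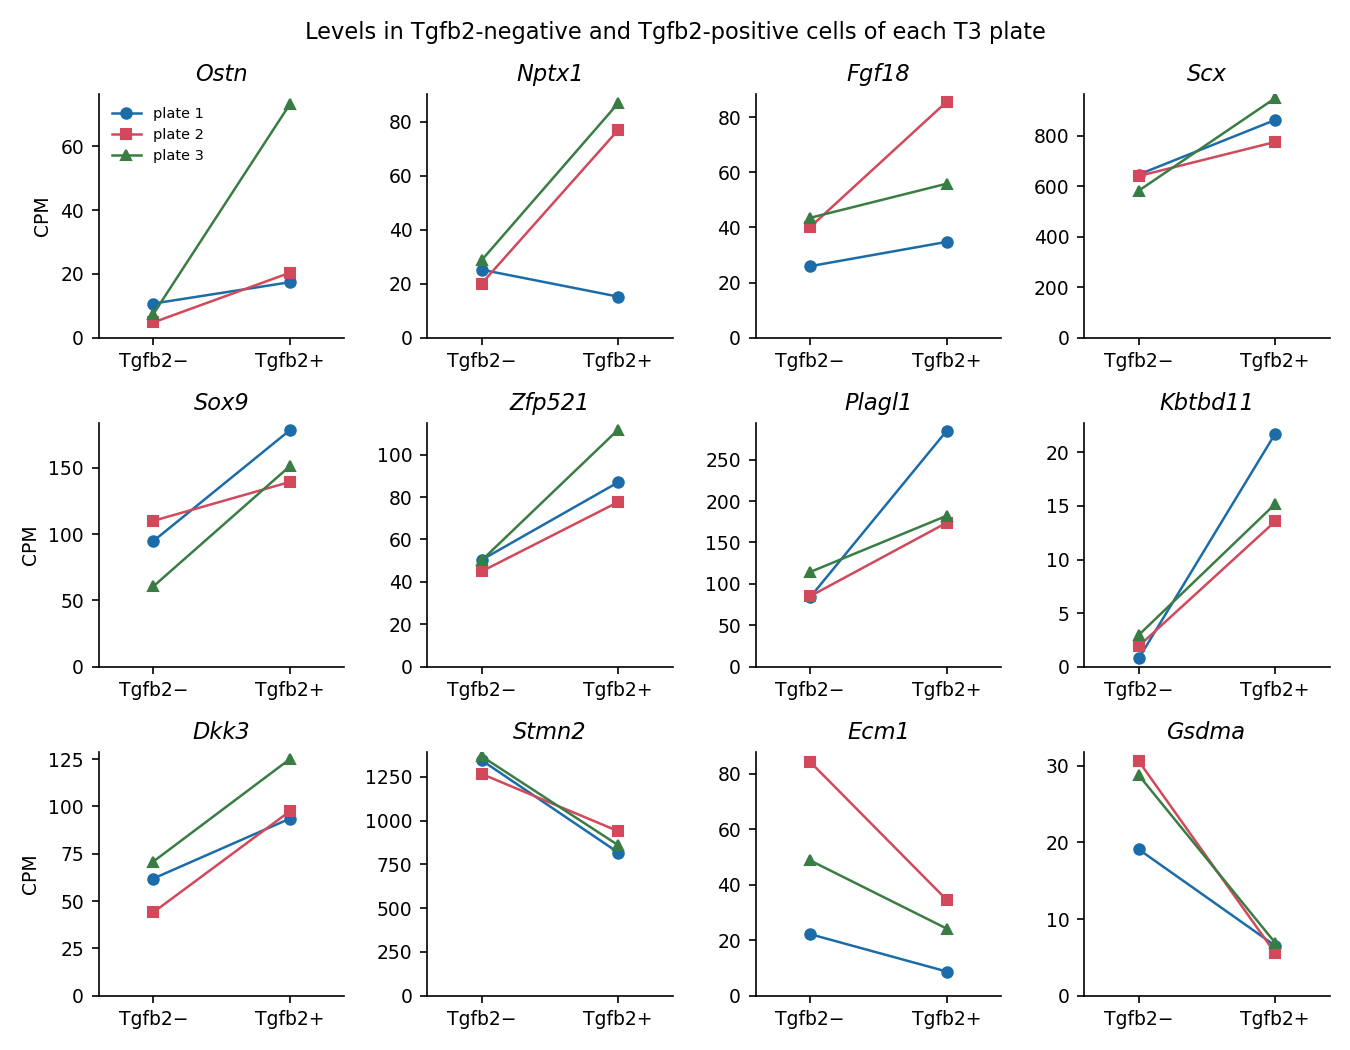
Levels (CPM, vertical axes from 0) of 12 genes in *Tgfb2*-negative and *Tgfb2*-positive cells of each T3 plate, with a line joining the classes of a plate. Lines rise in all 3 plates for *Scx*, *Sox9*, *Zfp521*, *Plagl1*, *Kbtbd11*, *Dkk3*, *Ostn*, and *Fgf18*, fall in all 3 for *Stmn2*, *Ecm1*, and *Gsdma*, and fall in plate 1 but rise in plates 2 and 3 for *Nptx1*.

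Among 27 tendon genes tested, 22 had a log2 fold change above 0, with a median of 0.40, whereas 48.3% of all genes tested were above 0 and their median was -0.01. In all 3 plates, 17 of the 27 were higher in positive cells and 3 were lower, and of all genes tested 16.0% were higher and 13.3% lower in all 3 plates. *Scx* was among the 2 that passed. *Scx* (chromosome 15, 76457452 to 76459458) stood at 863, 776, and 949.7 CPM in positive and 647, 641, and 583 CPM in negative cells of plates 1, 2, and 3. All positive values exceeded all negative ones, and the log2 fold change was 0.44 ± 0.08 (SE; adjusted p = 0.0122). *Scx* was detected in 86.3%, 88.3%, and 91.9% of positive and 75.6%, 79.4%, and 82.0% of negative cells, and after thinning in 78.1%, 81.4%, and 80.7% against 65.9%, 67.1%, and 69.7%. Its log2 fold change was 0.36 without the cells of other kinds (adjusted p = 0.0834) and 0.32 without plate 3 (adjusted p = 0.757). The gene overlaps *Bop1*, which is read from the other strand.

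*Tnmd*, the marker of mature tenocytes, was near the detection limit at T3. It stood at 15.2, 11.7, and 10.4 CPM in positive and 6.87, 1.91, and 5.16 CPM in negative cells, with a log2 fold change of 1.4 ± 0.60 (SE; adjusted p = 0.611). Matrix genes of tendon were measured more precisely. *Col3a1* stood at a log2 fold change of 0.18 ± 0.05 (SE; adjusted p = 0.162), *Postn* at 0.56 ± 0.17 (adjusted p = 0.266), and *Tnc* at 0.41 ± 0.14 (adjusted p = 0.331), each higher in positive cells of all 3 plates. *Col1a1* was lower in positive cells of all 3 plates, at -0.11 ± 0.05 (adjusted p = 0.692). *Mkx*, a homeobox gene of tendon, stood at 15.2, 14.8, and 18.6 CPM in positive and 17.6, 15.3, and 20.7 CPM in negative cells, with a log2 fold change of -0.16 ± 0.39.

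No tested gene of the lists for TGF-β ligands and their activation, receptors and Smads, or response and feedback passed at T3. Of the 9 tested genes for TGF-β ligands and their activation, 8 had a log2 fold change above 0, with a median of 0.27. *Tgfb3*, the other ligand known from tendon, stood at 113, 147, and 128 CPM in positive and 77.1, 110.0, and 88.5 CPM in negative cells. It was higher in positive cells of every plate, and the classes did not overlap, with a log2 fold change of 0.47 ± 0.16 (SE; adjusted p = 0.341). *Tgfb1* was low in both classes, at 10.9, 16.6, and 10.4 CPM against 5.34, 13.4, and 5.90 CPM (log2 fold change 0.61 ± 0.52, adjusted p = 0.926). *Ltbp1*, which tethers latent TGF-β to the matrix, stood at a log2 fold change of 0.38 ± 0.21 (adjusted p = 0.784), and *Itgb8*, an integrin subunit that activates latent TGF-β, at 0.83 ± 0.45 (adjusted p = 0.773).

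Among receptors and Smads, 3 of 9 genes tested were above 0, with a median of -0.03. *Smad3* stood at -0.46 ± 0.23 (SE; adjusted p = 0.725), *Smad2* at -0.36 ± 0.28 (adjusted p = 0.906), the inhibitory *Smad7* at 0.38 ± 0.20 (adjusted p = 0.765), and the type II receptor *Tgfbr2* at 0.34 ± 0.25 (adjusted p = 0.902). Of 24 response and feedback genes tested, 19 were above 0, with a median of 0.13. *Lox*, the collagen cross-linking enzyme, stood at 0.26 ± 0.10 (adjusted p = 0.520), and *Pmepa1*, a feedback inhibitor, at 0.24 ± 0.10 (adjusted p = 0.584). *Tagln*, a gene of contractile cells, stood at -0.59 ± 0.19 (adjusted p = 0.289), and *Ccn2*, a matricellular target gene, at 87.0, 70.3, and 75.9 CPM in positive and 77.1, 99.5, and 89.99 CPM in negative cells, so that the direction differed between plates.

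*Sox9* was the only 1 of 5 tested cartilage genes to pass, and all 5 were above 0. *Sox9* (chromosome 11, 112782224 to 112787760) stood at 178, 139, and 151 CPM in positive and 94.7, 110.0, and 60.5 CPM in negative cells. The classes did not overlap, with a log2 fold change of 0.81 ± 0.17 (SE; adjusted p = 0.0223). It was detected in 25.0%, 41.4%, and 34.9% of positive and 19.0%, 28.4%, and 22.2% of negative cells. Without the cells of other kinds its log2 fold change was 0.72 (adjusted p = 0.0881), and without plate 3 it was 0.58 (adjusted p = 0.845). *Sox6*, a partner of *Sox9* in cartilage, stood at 1.09 ± 0.46 (SE; adjusted p = 0.585). *Col2a1*, the main collagen gene of cartilage, was too low to be tested, at 0.764 to 8.11 CPM in negative and 4.35 to 6.21 CPM in positive cells.

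Of 13 limb and somite transcription factors tested, 10 were above 0, with a median of 0.44, and none passed. *Alx4* stood at 32.6, 37.6, and 32.4 CPM in positive and 14.5, 20.1, and 19.9 CPM in negative cells, without overlap, at a log2 fold change of 0.87 ± 0.31 (SE; adjusted p = 0.433). *Prrx1*, which marks limb mesenchyme, stood at 0.33 ± 0.12 (adjusted p = 0.486), and *Meox1*, a gene of the somite, at 0.48 ± 0.21 (adjusted p = 0.616).

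The other genes with the largest increases that passed included zinc finger genes and genes of the cell surface and secretory route. *Plagl1* (chromosome 10, 13060504 to 13131694), an imprinted zinc finger gene, stood at 285, 174, and 182 CPM in positive and 84.0, 85.1, and 114 CPM in negative cells. Positive values exceeded negative ones in every plate without overlap, with a log2 fold change of 1.09 ± 0.16 (SE; adjusted p = 0.000451), and *Plagl1* also passed in DESeq2 (adjusted p = 0.00309). *Zfp521*, another zinc finger gene, stood at 87.0, 77.7, and 112 CPM against 50.4, 44.9, and 50.2 CPM (log2 fold change 0.90 ± 0.20, adjusted p = 0.0386). *Kbtbd11*, a BTB and kelch domain gene, had the largest fold change but few UMIs, 61 in all, found in 30 positive and 7 negative cells. It came through the filter on low counts by the positive cells, the class where it is high. It stood at 21.7, 13.6, and 15.2 CPM against 0.764, 1.91, and 2.95 CPM (log2 fold change 3.01 ± 0.67, adjusted p = 0.0386).

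Among genes of the cell surface and secretory route, *Plxna2*, a semaphorin receptor, had a log2 fold change of 0.84 ± 0.17 (SE; adjusted p = 0.0142). *Parm1*, a mucin-like membrane protein, stood at 141, 220.0, and 150 CPM in positive and 73.3, 121, and 86.3 CPM in negative cells (0.83 ± 0.15, adjusted p = 0.00491). *Igsf3*, of the immunoglobulin superfamily, had a log2 fold change of 0.76 ± 0.15 (adjusted p = 0.0127), and *Pcsk5*, a proprotein convertase, one of 0.88 ± 0.19 (adjusted p = 0.0247). Of *Zfp521*, *Plxna2*, *Parm1*, *Igsf3*, *Pcsk5*, and *Kbtbd11*, *Igsf3* passed without plate 2 (adjusted p = 0.0359) and none passed without plate 3.

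*Dkk3*, a secreted protein of the dickkopf family, was the 1 of 14 tested Wnt genes to pass, at 93.5, 97.4, and 125 CPM in positive and 61.8, 44, and 70.8 CPM in negative cells (log2 fold change 0.83 ± 0.19, adjusted p = 0.041). *Sfrp1*, a secreted Wnt antagonist, lay on the other side, at 591, 863, and 575 CPM in positive and 700.2, 966, and 850 CPM in negative cells (-0.36 ± 0.09, adjusted p = 0.0552). *Rspo2*, a Wnt agonist, stood at 56.5, 29.0, and 10.4 CPM against 13.7, 3.83, and 7.38 CPM (1.76 ± 0.45, adjusted p = 0.0931), and *Sfrp2* at 0.83 ± 0.26 (adjusted p = 0.266). Over the Wnt list 8 of 14 genes were above 0.

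All 12 immediate early genes were above 0, with a median log2 fold change of 0.22, and *Fosb*, an AP-1 subunit, passed. *Fosb* stood at 80.4, 118, and 151 CPM in positive and 51.9, 66.0, and 60.5 CPM in negative cells (0.94 ± 0.19, adjusted p = 0.0142). *Jun* stood at 0.37 ± 0.09 (adjusted p = 0.0739), *Fos* at 0.35 ± 0.10 (adjusted p = 0.212), and *Atf3* at 0.90 ± 0.34 (adjusted p = 0.494). All 13 mitochondrially encoded genes were below 0, with a median of -0.12, and none passed. Their summed level was 90209, 57671, and 83108 CPM in positive and 99004, 61320, and 84404 CPM in negative cells. Their part in the other class differences was not tested.

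*Stmn2* (chromosome 3, 8509360 to 8561606), a microtubule regulator known from neurons, fell in positive cells. It stood at 817, 939, and 859 CPM in positive and 1344, 1266, and 1367 CPM in negative cells. All positive values lay below all negative ones, and the log2 fold change was -0.63 ± 0.08 (SE; adjusted p = 2.4e-05). *Stmn2* was the only gene of the neural list to pass of 2 tested. The defining neural genes *Sox1* and *Neurod1* were at 0 in both classes, *Tubb3* was at 0 to 3.69 CPM, and *Map2* had a log2 fold change of -0.01 ± 0.56. *Ecm1*, an extracellular matrix glycoprotein, stood at 8.70, 34.5, and 24.2 CPM in positive and 22.1, 84.2, and 48.7 CPM in negative cells (-1.20 ± 0.27, adjusted p = 0.041). *Gsdma*, of the gasdermin family, was found in 12 positive and 14 negative cells, at 6.52, 5.55, and 6.90 CPM against 19.1, 30.6, and 28.8 CPM (-2.13 ± 0.44, adjusted p = 0.0187), and 5 negative cells held 87.5% of its UMIs in that class. Neither *Ecm1* nor *Gsdma* passed without plate 2 (adjusted p = 0.748 and 0.445) or without plate 3 (both 0.445).

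All 5 pluripotency genes tested were lower in *Tgfb2*-positive cells and passed. *Nanog*, a core factor of the pluripotent state, stood at 0, 3.08, and 0.690 CPM in positive and 18.3, 21.0, and 17.7 CPM in negative cells (log2 fold change -3.56 ± 0.66, adjusted p = 0.00764). *Utf1* stood at 21.7, 3.70, and 5.52 CPM against 31.3, 76.5, and 50.2 CPM (-2.86 ± 0.44, adjusted p = 0.000582), and *Tdgf1*, a co-receptor of Nodal, at 10.9, 17.9, and 4.83 CPM against 35.9, 93.7, and 29.5 CPM (-2.33 ± 0.32, adjusted p = 0.000218). *Dppa5a* had a log2 fold change of -3.23 ± 0.50 (adjusted p = 0.000619). *Nanog* and *Dppa5a* came through the filter on low counts by the negative cells, the class where they are high. *Sox2* was higher in positive than in negative cells of plate 1 (52.2 against 32.1 CPM) and lower in plates 2 and 3 (6.78 against 84.2 and 4.14 against 62.0 CPM).

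These transcripts lay in a small number of cells. The 15 T3 cells with UMIs of at least 3 pluripotency genes were 3, 6, and 4 negative and 1, 1, and 0 positive cells of plates 1, 2, and 3. They held 97.8% of the *Tdgf1*, 93.5% of the *Sox2*, and 92.9% of the *Nanog* UMIs of the negative class, which is in part how they were defined. They also held a large share of the UMIs, in the negative class, of other genes called lower that were not used to define them, with 93.0% for *Spp1* (osteopontin), 87.9% for *Mylpf* (a myosin light chain of fast skeletal muscle), 75.4% for *Mt2* and 59.1% for *Mt1* (metallothioneins), 55.7% for *Avpi1*, and 40.9% for *Hspb1* (a small heat shock protein). For *Stmn2* the share was 1.13%, for *Gsdma* 1.04%, and for *Ecm1* 0%. The log2 fold changes with all cells were -4.37 ± 0.41 for *Mt2*, -3.01 ± 0.48 for *Mylpf*, -1.86 ± 0.42 for *Mt1*, -1.70 ± 0.25 for *Hspb1*, -1.69 ± 0.35 for *Spp1*, and -1.43 ± 0.33 for *Avpi1*. Without the cells of other kinds, *Hspb1* stood at -0.73 (adjusted p = 0.737), *Avpi1* at -0.37 (adjusted p = 0.995), and *Mt1* at 0.75 (adjusted p = 0.904), and *Mt2*, *Mylpf*, and *Spp1* could not be tested. *Mt2* was at 191 CPM in the negative cells of plate 2 and at 20.6 and 21.4 CPM in those of plates 1 and 3.

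The remaining lists gave no call at T3. The 3 FGF ligands tested ranged from -0.84 to 1.44, with *Fgf9* at 1.44 ± 0.39 (SE; adjusted p = 0.135) and at 30.4, 21.0, and 31.1 CPM in positive against 9.93, 7.65, and 11.8 CPM in negative cells. Of 11 FGF receptor and feedback genes tested, 5 were above 0. In the natriuretic peptide system, 3 of 4 genes tested were above 0, and *Npr3*, the clearance receptor, stood at 0.28 ± 0.29 (adjusted p = 0.961). Of 7 pentraxins and synaptic partners tested, 3 were above 0, with *Gria2*, an AMPA receptor subunit, at 0.61 ± 0.19 (adjusted p = 0.266). Of 15 BMP and GDF ligands and antagonists tested, 11 were above 0, with the antagonist *Fst* at 1.10 ± 0.34 (adjusted p = 0.266). Of 13 retinoic acid genes tested, 8 were above 0, and *Aldh1a2*, the enzyme that makes retinoic acid, stood at 226, 222, and 194 CPM in positive and 211, 315, and 244 CPM in negative cells (-0.30 ± 0.12, adjusted p = 0.556).

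Of 8 smooth muscle genes tested, 2 were above 0, and *Acta2* stood at -0.08 ± 0.08 (adjusted p = 0.951). The epithelial genes tested were both below 0, with *Epcam* at -1.71 ± 0.66 (adjusted p = 0.510). Of the endothelial genes, *Kdr* stood at -0.06 ± 0.32 and *Egfl7* at 0.03 ± 0.46. Of 9 parietal endoderm genes tested, 4 were above 0, and no skeletal muscle gene was high enough to be tested. Of the 41 S phase genes tested, 32 were below 0, with a median of -0.16, and of the 54 G2M genes 27 were below 0. UMIs of at least 1 of 6 genes of dividing cells were found in 68.8%, 77.5%, and 69.4% of positive and 74.4%, 77.3%, and 77.8% of negative cells, and of these 6 genes 4 were above 0. In cells without UMIs of these genes, edgeR called none of 4476 genes tested (247 at an unadjusted p under 0.05). This subset held 25, 50, and 57 positive and 62, 32, and 37 negative cells in plates 1, 2, and 3. Of the 45 genes called in all cells, 28 were tested there and 27 kept their direction.

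The level of some of these genes also varied among positive cells with the number of *Tgfb2* UMIs. This count chose the groups, so the values are given as a description. The median depth over all plates was 5850.5 UMIs in cells with 0 *Tgfb2* UMIs, 6621 with 1, 6782.5 with 2, and 6070 with 3 or more. The plates add unlike shares to these groups. Within plates 1, 2, and 3 the medians were 4891.5, 6970, and 7540 with 0 *Tgfb2* UMIs. With 3 or more they were 5548, 6262.5, and 7028.5. *Stmn2* stood at 1326 ± 52.8 CPM (SD, n = 3) in cells with 0 *Tgfb2* UMIs, 976 ± 74.8 with 1, 977 ± 92.6 with 2, and 738 ± 71.2 with 3 or more. *Plagl1* stood at 94.5 ± 17.2, 151 ± 16.5, 228 ± 94.6, and 255 ± 93.6 CPM in the same order. *Sox9* stood at 88.4 ± 25.3, 121 ± 40.5, 117 ± 8.35, and 197 ± 41.3 CPM. *Scx* was higher in all 3 groups of positive cells (834 ± 146, 979 ± 340, and 865 ± 174 CPM) than in negative cells (623 ± 35.3 CPM), and the means of the 3 groups lay within 1 SD of each other. When the classes were set as 2 or more UMIs against 0, edgeR called 44 genes, of which 33 were among the 45.

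**Figure D4:**
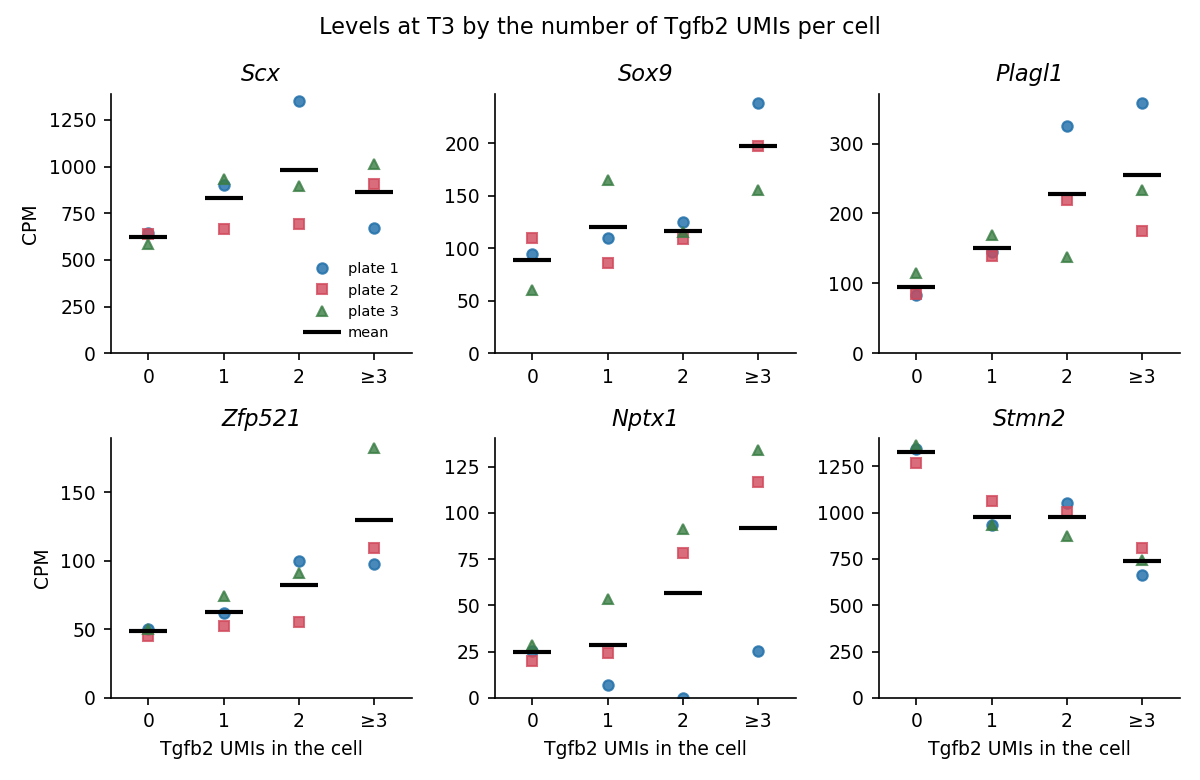
Levels at T3 (CPM, vertical axes from 0) of 6 genes in cells with 0, 1, 2, or at least 3 *Tgfb2* UMIs, with a point per plate and a bar at the mean of the 3 plates. The mean of *Stmn2* is 1326 CPM at 0 UMIs and 738 CPM at 3 or more, and those of *Plagl1* are 94.5 and 255 CPM.

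The same split was made at T0, T6, and T9, each in its own 3 plates. It gave 424 of 11009 genes at T0 (3.85%), 79 of 10797 at T6 (0.732%), and 47 of 9685 at T9 (0.485%). Unlike at T3, positive cells were deeper than negative cells in every plate of these time points. In plates 1, 2, and 3 the medians were 10881.5, 8305.5, and 10780 against 9081, 7537, and 10176 UMIs at T6. At T9 they were 10189, 8223, and 8411.5 against 8989, 7226, and 7057. With classes matched on UMIs per cell, edgeR called 311 genes at T0, 74 at T6, and 42 at T9. Of the 23 genes higher at T3, all were tested at T6, where 21 had the same direction and 10 were called, which is 43.5% of the 23 and 17.9% of the 56 genes called higher at T6 (0.519% of all genes tested at T6). These 10 included *Scx*, *Sox9*, *Plagl1*, *Zfp521*, *Pcsk5*, and *Igsf3*. Of the 22 genes lower at T3, 17 were tested at T6 and 5 (*Stmn2*, *Apoe*, *Mkrn1*, *Utf1*, and *Mt2*) were called there, 29.4% of the 17 and 21.7% of the 23 called lower at T6 (0.213%). At T3, cells with pluripotency genes held 74.0%, 74.0%, 88.9%, and 75.4% of the negative-class UMIs of *Apoe*, *Mkrn1*, *Utf1*, and *Mt2*. The pluripotency genes summed to 326, 9.95, and 6.58 CPM in negative cells of T6 plates 1, 2, and 3. In positive T6 cells they summed to 19.5, 4.95, and 15.9 CPM. At T9, *Scx* and *Gja1*, which encodes connexin 43, were called of the 21 higher genes tested (0.423% of all genes tested were called higher), and *Stmn2* of the 22 lower genes (0.062% called lower). At T0, 5 of 21 higher and 16 of 22 lower genes were called, with 1.98% of all genes called higher and 1.87% lower. Of the 1071 T0 cells, 118 held UMIs of at least 3 pluripotency genes and 106 held UMIs of at least 3 epithelial genes.

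*Scx* passed at all 4 time points. Its log2 fold change between the classes was 1.24 ± 0.32 (SE; adjusted p = 0.0395) at T0, 0.36 ± 0.08 (adjusted p = 0.036) at T6, and 0.78 ± 0.11 (adjusted p = 0.00272) at T9. Few T0 cells held *Scx*, with 9, 6, and 8 positive and 10, 13, and 10 negative cells in plates 1, 2, and 3. After thinning, its T0 detection was 1.96%, 0%, and 7.69% in positive and 2.66%, 2.18%, and 1.97% in negative cells. The direction of the thinned shares at T0 thus differed between plates. *Scx* stood at 331, 155, and 207 CPM in positive and 162, 104, and 130 CPM in negative cells of the T9 plates, so that it was higher in positive cells of every plate. *Stmn2* was lower in positive cells at T6 (-0.60 ± 0.09, adjusted p = 0.000429) and T9 (-0.66 ± 0.12, adjusted p = 0.0127) as at T3, and did not pass at T0 (0.29 ± 0.09, adjusted p = 0.114). *Nptx1* passed at T6 (1.60 ± 0.31, adjusted p = 0.00505), where it stood at 22.6, 36.6, and 16.7 CPM in positive and 4.55, 12.3, and 7.24 CPM in negative cells. *Ostn* did not (0.16 ± 0.43, adjusted p = 0.982), and neither was high enough to be tested at T0 or T9. *Tnmd* passed at T6 (1.67 ± 0.23, adjusted p = 8.78e-05) and T9 (1.86 ± 0.20, adjusted p = 1e-04), where it stood at 326, 161, and 145 CPM in positive and 77.6, 80.2, and 21.2 CPM in negative cells, and *Postn* passed at T6 (0.68 ± 0.09, adjusted p = 3.16e-05) and T9 (0.53 ± 0.07, adjusted p = 0.00114).

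**Figure D5:**
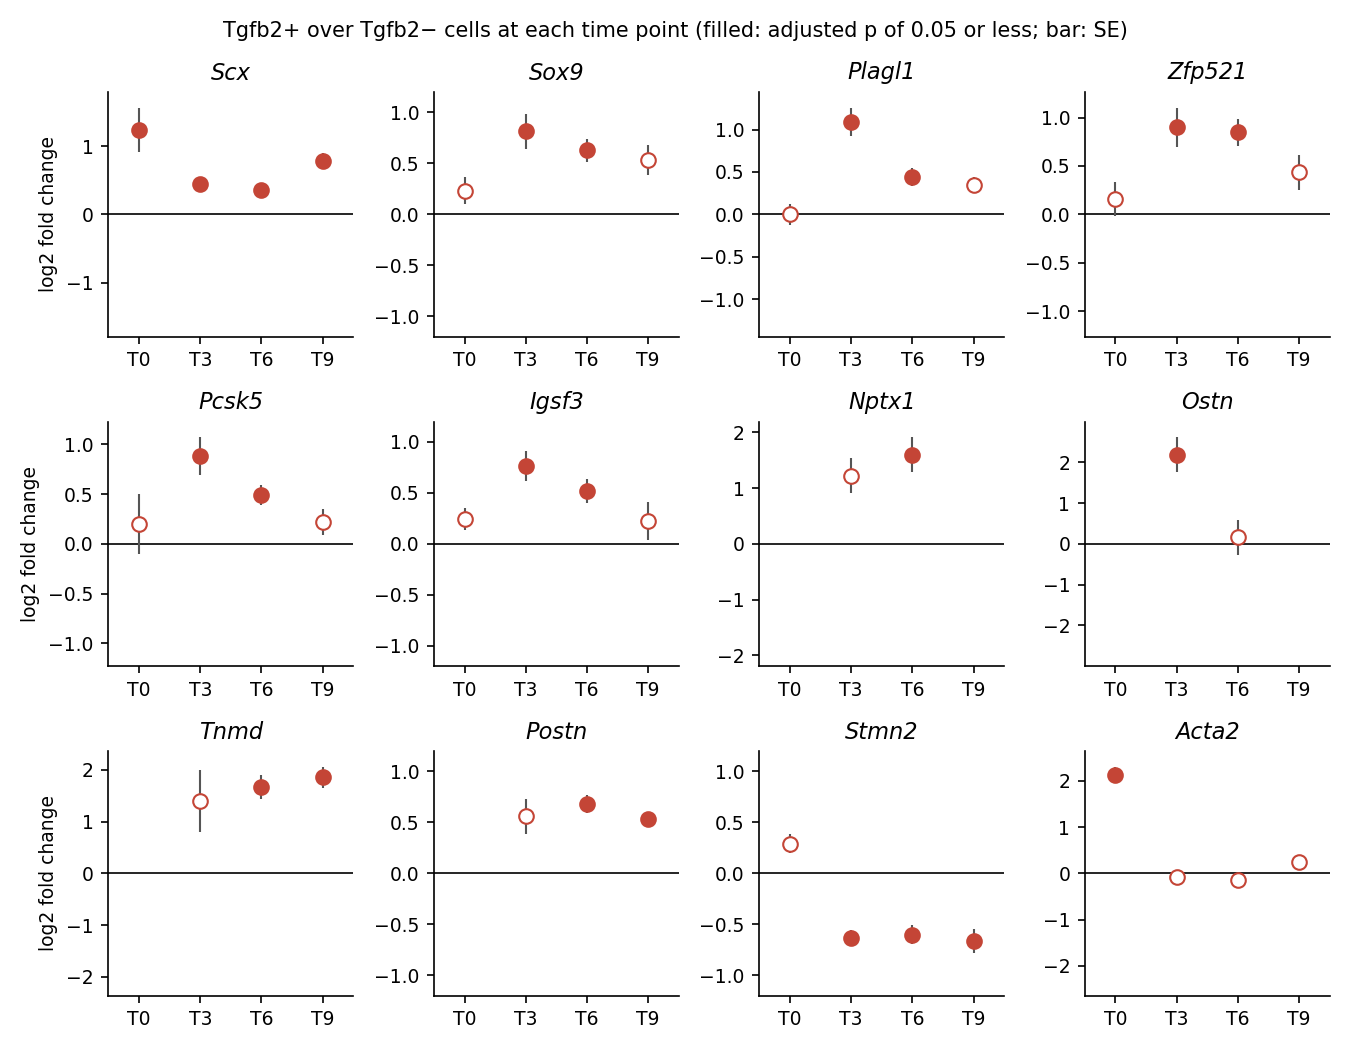
The log2 fold change of *Tgfb2*-positive over *Tgfb2*-negative cells (vertical axes, bar SE) of 12 genes at T0, T3, T6, and T9, filled where the adjusted p was 0.05 or less; no point means that the gene was too low to be tested. *Scx* is filled at all 4 time points, *Stmn2* at T3, T6, and T9 with negative values, and *Acta2* at T0 alone.

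The difference between time points was tested in a fit of all 24 sums. Between T6 and T3, and between T9 and T3, 1 of 12019 genes each differed in its class effect (0.00832%), and between T0 and T3 38 did (0.316%), of which 29 were higher (0.241%) and 9 lower (0.0749%) at T0 than at T3. The gene at T6 was *Dkk1* (-3.73 ± 0.51, adjusted p = 0.000852), and that at T9 was *Krt19* (adjusted p = 0.0151), both named after their values were seen. Without plate 3, *Dkk1* stood at -1.48 ± 0.82 and did not pass (adjusted p = 1). *Krt19*, an epithelial keratin gene, had 0 UMIs in the positive cells of all 3 T3 plates and 0, 15, and 5 UMIs in the negative cells, so that no fold is given. It did not pass without plate 2 (adjusted p = 0.566) or without plate 3 (adjusted p = 0.0540). *Acta2*, the smooth muscle actin gene, was higher in positive cells at T0 (766, 982, and 315 CPM against 193, 130, and 119 CPM in negative cells) and stood at 665, 893, and 879 CPM against 705, 842, and 979 CPM at T3. The difference of the class effects was 2.19 ± 0.22 (SE; adjusted p = 5.56e-07). *Tagln* differed in the same direction, by 2.68 ± 0.26 (adjusted p = 5.56e-07). For *Stmn2* the class effect at T0 was above that at T3 by 0.91 ± 0.16 (adjusted p = 0.00508), and for *Plagl1* it was below that at T3, at -1.09 ± 0.20 (adjusted p = 0.00573).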

How the data were processed

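Single cells of *ScxGFP* iPSC cultures were sorted at T0, T3, T6, and T9 into 12 plates. Per the labels and the methods of the study, the authors used Trim Galore for trimming, HISAT2 2.2.1 for alignment (GRCm38), and featureCounts and UMI-tools 1.0.1 for counting, and deposited raw UMI counts per gene and well. The annotation release and the use of strand in counting are not given in the sources used here, so that reads of *Scx* and of *Bop1*, which overlaps it on the opposite strand, may not be told apart. *Tgfb2*, which defines the classes, *Ostn*, and other named genes also overlap annotated genes on the opposite strand and share this limit. Gene positions come from GENCODE M21 (GRCm38). The bulk counts and the barcode list were not used.

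UMIs were summed per plate and class, with *Tgfb2* and 3 rows without an Ensembl gene ID (0.0642% of UMIs) left out. In such sums, cells with more UMIs weigh more. The sums were fitted with edgeR 4.0.16 in R 4.3.3 (filterByExpr, TMM, quasi-likelihood test, Benjamini-Hochberg adjusted p of 0.05 or less) with the plate as a block, and the class effects of pairs of time points were compared in 1 fit of all plates. The filter kept genes high enough in the sums of either class alone. A gene near 0 in the other class, such as *Kbtbd11* or *Nanog*, was thus tested because of the class where it is high. Adjusted p-values are from edgeR unless DESeq2 1.42.0 is named. The pairing comes from the design, since both classes of a plate were in 1 library, and their deviations from the class means correlated in plates 1, 2, and 3 (0.27, 0.50, and 0.15 over 9856 genes). On simulated T3 sums with 200 of 9856 genes changed, edgeR recovered 50.5% of 2-fold changes with 0 false calls and 79.5% of 3-fold changes with 10. These sums were drawn from the spread that edgeR estimated. They held no residual cells of other kinds and no UMIs gathered in few cells, unlike the T3 data. The 12 plates shared the same 384 well barcodes by design. The sorting gate excluded doublets, and no doublet caller was run.

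Alternatives were DESeq2, RLE size factors, no filter on low counts, no block, leaving out each plate, thinning to 3000 UMIs, classes matched on UMIs per cell, 2 or more *Tgfb2* UMIs against 0, no minimum of UMIs, cells without UMIs of 6 genes of dividing cells, *Scx*-positive cells, and leaving out cells with UMIs of at least 3 genes of a pluripotent, epithelial, endothelial, or neural list. The genes named are the markers, *Scx*, *Sox9*, *Aldh1a2*, *Tnmd*, *Acta2*, *Tgfb1*, and *Tgfb3*, the 12 largest called changes in each direction with at least 30 UMIs and 1 direction in all 3 plates, and up to 4 genes of smallest p in each of 26 lists. *Sox2*, *Tnc*, *Mkx*, *Ccn2*, *Col2a1*, *Sox1*, *Neurod1*, *Tubb3*, *Bop1*, and the called genes outside this rule (*Mgp*, *Malat1*, *Nrp2*, *Gja1*, *Ptn*, *Ldb2*, *S100a6*, *Apoe*, and *Mkrn1*) were named after their values were seen. Results of some genes of these lists are not reported here. The members and the lists were chosen with earlier results of these data known.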

Additional observations from a re-analysis of the deposited data

Results flagged for a closer look

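The class effect at T0 differed from that at T3 in 38 genes, and the effects at T6 and at T9 each differed from that at T3 in 1 gene, by the interaction of class and time point (edgeR). The interaction was not fitted without the cells of other types. Among the genes called at T3 or chosen by the rule for named genes, the effect at T0 minus that at T3 was 2.83 for *Thbs1* (adjusted p = 0.00012), 2.68 for *Tagln* (adjusted p = 5.56e-07), 2.19 for *Acta2* (adjusted p = 5.56e-07), 1.82 for *Ecm1* (adjusted p = 0.0153), 1.69 for *S100a6* (adjusted p = 0.00196), and 1.62 for *Hspb1* (adjusted p = 0.00557). It was 1.13 for *Ldb2* (adjusted p = 0.00983), 1.00 for *Tpm1* (adjusted p = 3.68e-05), 0.91 for *Stmn2* (adjusted p = 0.00508), 0.65 for *Cald1* (adjusted p = 0.00332), and -1.09 for *Plagl1* (adjusted p = 0.00573). *Plagl1* stood at 92.1, 134, and 108 CPM in positive and 110.0, 104, and 113 CPM in negative cells of the T0 plates, so that the direction differed between plates there.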

How the results depend on the processing

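At T3 the count of 45 genes became 10 with DESeq2, 72 without a filter on low counts, and 38 after thinning. It became 3 with classes matched on UMIs per cell, 23 with no minimum of UMIs, and 0 in cells without UMIs of dividing genes. It was 10 in *Scx*-positive cells and 17 without cells of other types, and it ranged from 12 to 60 when a plate was left out. At T0 the count of 424 became 94, 737, 36 after thinning, 6 in *Scx*-positive cells, and 95 without cells of other types, with a range of 130 to 901 over left-out plates. At T6 the count of 79 became 15 with DESeq2, 145 without a filter, 28 after thinning, and 8 in cells without UMIs of dividing genes, with a range of 32 to 91. At T9 the count of 47 became 107 without a filter, 17 after thinning, 88 with 2 or more *Tgfb2* UMIs against 0, and 2 in *Scx*-positive cells. Without the replicate block, that is without the pairing of classes by plate, the counts were 0 at T3, 151 at T0, 0 at T6, and 0 at T9 (237, 1126, 184, and 156 at an unadjusted p under 0.05). For the 38 genes that differed between T0 and T3, the count became 76 without a filter, 11 after thinning, and 64 with 2 or more UMIs, with a range of 13 to 36 over left-out plates. For T6 against T3 the count of 1 became 12 without a filter, 2 after thinning, and 0 with matched classes, with a range of 1 to 6, and *Dkk1* was not among the genes called after thinning or without plate 3. For T9 against T3 it became 3 with DESeq2, 6 with RLE size factors, 24 without a filter, 4 after thinning, 3 with matched classes, and 0 with 2 or more UMIs, with a range of 0 to 9, and *Krt19* was not among the genes called after thinning, with matched classes, or without plate 2 or 3. The causes were not tested, other than that matching, thinning, and the subsets of cells leave fewer UMIs.

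The log2 fold change changed sign for *Mt1* (0.75) and *Apoe* (0.12) without cells of other types, for *Apoe* (0.17) in cells without UMIs of dividing genes, and for *Acta2*, which was not called, with 2 or more UMIs (0.0485). Without cells of other types, 14 of the 36 called genes that could be tested stayed called. In cells without UMIs of dividing genes, T0 could not be fitted, since 1 class held 4 cells in a plate. The share of *Tgfb2*-positive cells fell with thinning to means of 32.2% for T3, 13.5% for T0, 25.5% for T6, and 15.7% for T9.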
